A study of Mus musculus with 16 samples.

Results

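The genes described here are 34 transcripts that mark myeloid cells, followed in RNA from sorted mouse regulatory T cells (Tregs), which are not myeloid cells. They were chosen by gene name in the deposited expression table, which after removal of 24 entries turned into dates holds 19195 genes. Of the 34, 28 are macrophage or monocyte genes and 6 are neutrophil genes, and the table holds all of them. RNA sequencing was done on 16 libraries of about 100 Tregs each, in 4 groups of 4 libraries. The groups are CCR8+ and CCR8- Tregs from the injured heart, and CCR8+ and CCR8- Tregs from the mediastinal lymph nodes (MLN), the nodes that drain the chest. CCR8 is a chemokine receptor on the cell surface. All groups came from 8-week-old Foxp3-GFP mice, in which green fluorescent protein reports Foxp3, the transcription factor that defines Tregs. All were taken 7 days after myocardial infarction (MI), so every group shares the reporter and the infarct, and no uninjured group is among them. The cells were sorted by magnetic beads and then by flow cytometry. The labels do not say whether different mice gave the libraries of a group, so p-values measure the spread between libraries, which may be technical.

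Macrophages and monocytes clear dead cells, present antigen and remodel tissue, and they enter an infarct in large numbers in the first week. Their transcripts include the complement protein C1q, receptors for antibody and bacterial products with their signalling adaptors, lysosomal proteins, lipid carriers such as ApoE, and secreted mediators such as osteopontin and interleukin 1 beta. Neutrophils arrive earlier, live briefly and carry S100a8 and S100a9 at very high level. Genes of both lineages are controlled in large part by PU.1, an ETS-family transcription factor that binds a purine-rich DNA core. Most of these genes are not part of the usual T cell programme, although some, such as Plac8 and Lgals3, are also transcribed by T cells.

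Promoters of 5 of the genes are shown because the results turn on them, taken from among the genes that hold the motif described below: C1qb and C1qc as subunits of the same protein, Spp1 and Acod1 as genes that differ between the tissues, and S100a8 as the neutrophil gene with the highest mean level. Each is the 250 bases before the RefSeq gene start in build GRCm38.p6, written 5′ to 3′ on the gene's strand. Capitals mark the PU.1-type core GAGGAA or its longer form GAGGAAGT on either strand, so that TTCCTC and ACTTCCTC are also capitals. Each longer match contains a shorter one. Spp1 has 2 entries in the table, of which the entry with more matches is shown.
C1qb (chr4:136886201-136886450, minus strand): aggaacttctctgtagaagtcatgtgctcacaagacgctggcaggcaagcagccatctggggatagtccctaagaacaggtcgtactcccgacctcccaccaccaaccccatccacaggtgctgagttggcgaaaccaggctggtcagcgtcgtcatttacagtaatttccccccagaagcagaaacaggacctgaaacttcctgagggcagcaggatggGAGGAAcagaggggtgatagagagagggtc
C1qc (chr4:136892915-136893164, minus strand): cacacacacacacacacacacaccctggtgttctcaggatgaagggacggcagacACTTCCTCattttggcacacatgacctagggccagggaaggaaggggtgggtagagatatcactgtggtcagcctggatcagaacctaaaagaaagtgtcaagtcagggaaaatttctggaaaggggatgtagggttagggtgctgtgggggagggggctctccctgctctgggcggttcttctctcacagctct
Spp1 (chr5:104434861-104435110, plus strand): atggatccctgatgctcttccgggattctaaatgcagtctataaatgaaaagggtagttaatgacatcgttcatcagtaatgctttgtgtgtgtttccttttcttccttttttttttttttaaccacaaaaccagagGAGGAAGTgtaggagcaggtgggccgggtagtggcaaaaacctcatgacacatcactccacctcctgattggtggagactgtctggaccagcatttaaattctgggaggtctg
Acod1 (chr14:103046762-103047011, plus strand): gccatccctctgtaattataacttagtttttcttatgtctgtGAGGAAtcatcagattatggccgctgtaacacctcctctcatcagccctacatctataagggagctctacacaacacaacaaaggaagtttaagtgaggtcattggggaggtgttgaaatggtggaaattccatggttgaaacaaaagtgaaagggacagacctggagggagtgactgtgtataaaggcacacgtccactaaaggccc
S100a8 (chr3:90668821-90669070, plus strand): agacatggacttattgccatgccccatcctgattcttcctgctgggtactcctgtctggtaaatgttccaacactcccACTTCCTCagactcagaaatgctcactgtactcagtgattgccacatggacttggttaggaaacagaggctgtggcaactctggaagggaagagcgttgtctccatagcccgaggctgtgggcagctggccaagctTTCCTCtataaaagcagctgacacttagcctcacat

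The match begins 30 bases before the start in C1qb, 195 in C1qc, 113 in Spp1 and 208 in Acod1. S100a8 has matches at 172 and at 36. The GENCODE annotation, used below for gene positions, places the starts of C1qc, Acod1 and S100a8 further upstream. The last bases shown for these genes therefore lie within the GENCODE gene, and with them the S100a8 match at 36. GAGGAA was present in 13 of the 22 macrophage and monocyte genes that have a promoter entry, in 4 of the 6 neutrophil genes, and in 25.9% of the 27025 genes with any promoter of that length in the table. The longer GAGGAAGT was present in 3 of the 22 (C1qc, Spp1 and Pf4), in 2 of the 6 (S100a8 and Mmp8) and in 2.79% of those genes. These matches are descriptions of letters, and binding was not measured. Csf1r, Adgre1, C1qa, Cd14, Arg1 and Tyrobp have no entry in the promoter table, which matched 28 of the 34 genes by symbol.

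All levels are the deposited values, read as log2(FPKM + 1), in which FPKM is the number of fragments scaled for transcript length and for the total mapped. A level of 1 is an FPKM of 1. The number of reads per library is not known. Between 10691 and 12704 genes were above 0 in a library, and the deposited values share the same highest value of 14.90 in all libraries. The general T cell markers were present in every library: 10 of 12 were in the table, all 10 stood at an FPKM of 1 or more in all 16 libraries, and their mean level lay between 7.72 and 8.90. Foxp3 lay between 4.32 and 6.46. Two-sided tests come from a linear model in limma across the 10369 genes that reached an FPKM of 1 in 4 libraries or more, and a gene was called at a Benjamini-Hochberg adjusted p under 0.05. A difference against a group in which a gene is listed at 0 in all 4 libraries depends on the added 1, so it is given as a difference on this scale and not as a fold.

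Macrophage and monocyte genes stood far higher in heart libraries than in MLN libraries, except in 1 heart library. The mean level of the 28 genes was 3.68 ± 0.79 in heart CCR8- Tregs (SD, n = 4, range 2.85 to 4.57) and 3.68 ± 2.02 in heart CCR8+ Tregs (n = 4, range 1.10 to 5.95). In the MLN it was 0.86 ± 0.31 in CCR8- and 1.06 ± 0.30 in CCR8+ Tregs (SD, n = 4 each). For 27 of the 28 genes the mean over the 8 heart libraries was above the mean over the 8 MLN libraries, with Plac8 as the exception. In these bulk libraries, fewer cells of a type and less RNA per cell cannot be told apart.

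**Figure D1:**
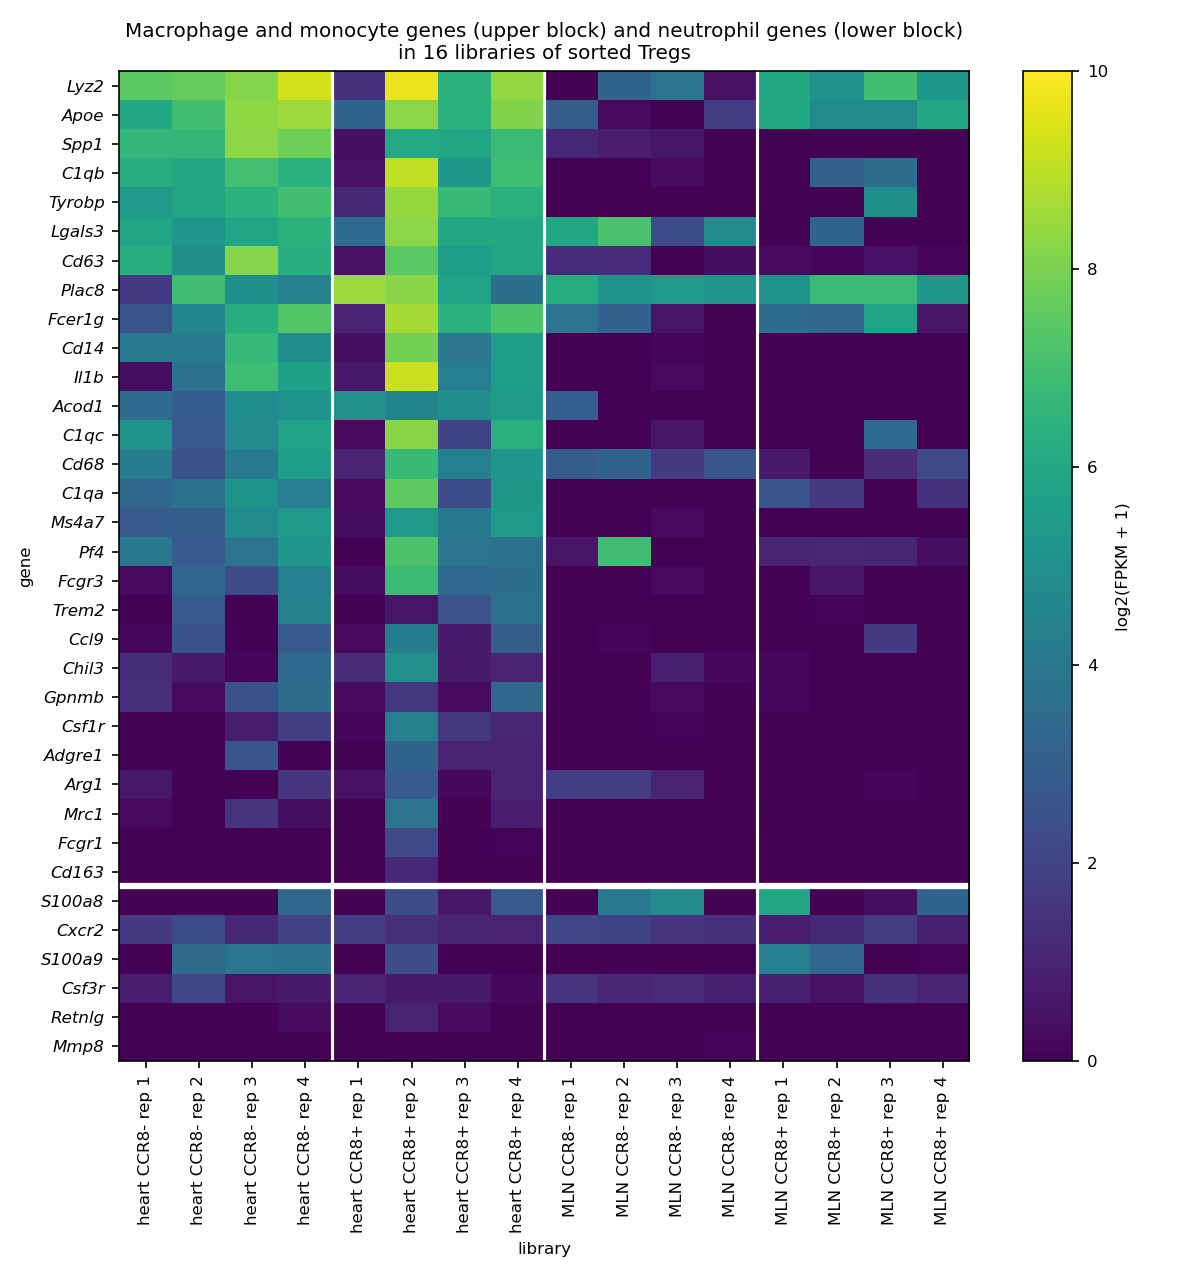
Level of each of the 28 macrophage and monocyte genes (upper block) and 6 neutrophil genes (lower block) in each of the 16 libraries, as log2(FPKM + 1) on a colour scale from 0 to 10. Rows of the upper block are ordered by mean level over the heart libraries only, and rows of the lower block by mean level over all libraries. The heart columns are bright for most of the upper block except in heart CCR8+ replicate 1, and the lower block stays at or below 5.91 in all libraries.

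Heart CCR8+ replicates 1 and 2 stood apart from the other heart libraries and in opposite directions. Heart CCR8+ replicate 1 had 7 of the 28 genes at an FPKM of 1 or more, against 18 to 27 in the other 7 heart libraries and 4 to 10 in MLN libraries. It was the lowest of the 8 heart libraries for 14 of the 28 genes, and 5 more had a tied lowest value. Heart CCR8+ replicate 2 had 27 genes at an FPKM of 1 or more and was the highest heart library for 20 of the 28. Without Plac8, the summed FPKM of the genes was 1.04% of the summed FPKM of the T cell markers in replicate 1 and 82.2% in replicate 2. That share was 9.23, 9.41, 45.0 and 25.7% in heart CCR8- replicates 1 to 4. It was 9.59% and 21.3% in heart CCR8+ replicates 3 and 4, and 0.286 to 4.59% in the MLN libraries. The summed FPKM of the T cell markers itself varied, from 4315 in heart CCR8- replicate 3 to 9334 in MLN CCR8- replicate 4. Without Plac8, the genes summed to 1941 in heart CCR8- replicate 3 and to 2125 in heart CCR8- replicate 4.

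The low library was not low for every gene. Of 16 genes at an FPKM of 1 or more in all other 7 heart libraries, 10 were under 1 in heart CCR8+ replicate 1. The 6 others were Plac8 at 8.51, Acod1 at 5.05, Lgals3 at 3.49, Apoe at 3.23, Lyz2 at 1.44 and Tyrobp at 1.17. Plac8 alone made up 85.6% of the summed FPKM of the 28 genes in that library, and Acod1 7.59%. Csf1r, the receptor for the macrophage growth factor, was at 0.14 there, and Adgre1, Fcgr1, Mrc1, Trem2, Pf4 and Cd163 were at 0. Of these, only Pf4 set the library apart. Csf1r was lower in heart CCR8- replicates 1 and 2, at 0.03 and 0.01. Adgre1, Fcgr1, Mrc1 and Trem2 were also at 0 in other heart libraries, and Cd163 was at 0 in 7 of the 8.

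C1q, the recognition protein that starts the classical complement pathway, is built from the products of C1qa, C1qb and C1qc, 3 adjacent genes on chromosome 4 (GRCm38 136880129-136886187 for C1qb, 136889804-136893065 for C1qc and 136895917-136898803 for C1qa). In heart CCR8- replicates 1 to 4, C1qb was at 6.25, 6.04, 7.03 and 6.39. Heart CCR8+ replicates 1 to 4 had C1qb at 0.50, 9.04, 5.32 and 6.91. Among MLN libraries, C1qb was at 0, 0, 0.28 and 0 in CCR8- and at 0, 3.11, 3.62 and 0 in CCR8+ replicates 1 to 4. The CCR8- groups did not overlap, and the CCR8+ groups overlapped because of heart replicate 1. C1qb was higher in heart than in MLN CCR8- Tregs by 6.36 ± 1.22 (difference ± SE, limma, adjusted p = 0.00443). The CCR8+ difference of 3.76 ± 1.22 was not called. It was called without heart CCR8+ replicate 1, at 5.41 (limma, adjusted p = 6.49e-04), and without MLN CCR8+ replicate 3, at 4.40 (adjusted p = 0.0396). With all libraries it was also called with a replicate block (adjusted p = 0.0391), with array weights (0.044) and with an FPKM minimum of 5 (0.0476).

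C1qa was at 3.39, 3.77, 5.14 and 4.29 in heart CCR8- replicates 1 to 4 and at 0.28, 7.54, 2.30 and 5.28 in heart CCR8+ replicates 1 to 4. It was listed at 0 in all MLN CCR8- libraries and stood at 2.66, 1.65, 0 and 1.46 in MLN CCR8+ replicates 1 to 4. C1qc was at 5.13, 2.80, 4.83 and 5.76 in heart CCR8- and at 0.28, 8.24, 2.03 and 6.35 in heart CCR8+ replicates 1 to 4. MLN libraries had C1qc at 0 except for 0.53 in CCR8- replicate 3 and 3.48 in CCR8+ replicate 3. All 3 subunits together reached an FPKM of 1 in 7 of 8 heart libraries and in 0 of 8 MLN libraries, while at least 1 subunit did so in 4 MLN libraries. In CCR8- Tregs, C1qa was higher in heart by 4.15 ± 1.06 (SE, limma, adjusted p = 0.0311) and C1qc by 4.50 ± 1.28 (adjusted p = 0.0499). Both calls were weak: C1qa lost its call without any of 7 single libraries (adjusted p up to 0.0825) and C1qc without any of 10 (adjusted p up to 0.118). C1qc also lost it with a replicate block (adjusted p = 0.0639).

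Tyrobp, the adaptor DAP12 that carries signals for myeloid and NK receptors, was at 5.38 to 8.41 in the heart libraries other than CCR8+ replicate 1. Its levels were 5.38, 5.93, 6.40 and 6.95 in heart CCR8- replicates 1 to 4 and 1.17, 8.41, 6.75 and 6.34 in heart CCR8+ replicates 1 to 4. Tyrobp was listed at 0 in 7 of 8 MLN libraries, with 4.98 in MLN CCR8+ replicate 3. It was higher in heart than in MLN by 6.17 ± 1.20 in CCR8- Tregs (SE, limma, adjusted p = 0.00462) and by 4.42 ± 1.20 in CCR8+ Tregs (adjusted p = 0.0232). In CCR8+ Tregs the groups overlapped, and the call was lost without any of heart replicates 2, 3 and 4 and MLN replicates 1, 2 and 4 (differences 3.51 to 4.20, adjusted p 0.0596 to 0.0925). Fcer1g, the common gamma chain of Fc receptors, was less restricted to heart. It was at 2.59, 4.59, 6.25 and 7.34 in heart CCR8- and at 0.94, 8.63, 6.37 and 7.17 in heart CCR8+ replicates 1 to 4. In the MLN it was at 3.81, 3.15, 0.56 and 0 in CCR8- and at 3.50, 3.28, 5.79 and 0.53 in CCR8+ replicates 1 to 4. Tissues overlapped for Fcer1g, and its tissue difference of 2.91 ± 0.99 over both sorts was not called (adjusted p = 0.0581). That difference was called without heart CCR8- replicate 1 (limma, adjusted p = 0.0331) or heart CCR8+ replicate 1 (0.00482). It was also called without MLN CCR8- replicate 1 (0.042) or MLN CCR8+ replicate 3 (0.0357), and with an FPKM minimum of 5 (0.04955).

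Fcgr3, a low-affinity receptor for immunoglobulin G, was at 0.25, 3.29, 2.29 and 4.32 in heart CCR8- and at 0.34, 6.82, 3.42 and 3.60 in heart CCR8+ replicates 1 to 4. No MLN library exceeded 0.62. It was higher in heart CCR8+ than in MLN CCR8+ Tregs by 3.38 ± 0.99 (SE, limma, adjusted p = 0.0338), and this call was lost without heart CCR8+ replicate 2, 3 or 4 or any MLN CCR8+ replicate (adjusted p 0.0542 to 0.121). Cd14, a co-receptor for bacterial lipopolysaccharide, was at 4.17, 4.07, 6.70 and 4.85 in heart CCR8- and at 0.39, 7.92, 3.95 and 5.62 in heart CCR8+ replicates 1 to 4. It was listed at 0 in 7 MLN libraries and at 0.19 in MLN CCR8- replicate 3. No heart library overlapped an MLN library, and the differences were 4.90 ± 1.04 in CCR8- (SE, limma, adjusted p = 0.00986) and 4.47 ± 1.04 in CCR8+ Tregs (adjusted p = 0.00922).

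Ms4a7, a membrane protein of macrophages, was at 2.88, 2.94, 4.73 and 5.52 in heart CCR8- and at 0.34, 5.43, 4.05 and 5.43 in heart CCR8+ replicates 1 to 4, and MLN libraries stood at 0 except for 0.23 in CCR8- replicate 3. Heart was higher by 3.96 ± 0.88 in CCR8- (SE, limma, adjusted p = 0.0134) and by 3.81 ± 0.88 in CCR8+ Tregs (adjusted p = 0.00855), with no overlap. The lysosomal membrane protein Cd68 was less selective. Its heart levels were 4.22, 2.47, 4.09 and 5.60 in CCR8- and 0.98, 6.74, 4.32 and 5.20 in CCR8+ replicates 1 to 4. MLN CCR8- Tregs also carried it, at 2.94, 3.22, 1.69 and 2.58, and MLN CCR8+ replicates 1 to 4 had 0.67, 0, 1.25 and 2.22. The tissues overlapped, and Cd68 was called in CCR8+ Tregs (3.27 ± 0.93, limma, adjusted p = 0.0287) but not in CCR8- Tregs. That call was lost without any of 5 single libraries: heart CCR8+ replicates 2, 3 and 4 and MLN CCR8+ replicates 1 and 2 (differences 2.46 to 3.27, adjusted p 0.0611 to 0.118).

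**Figure D2:**
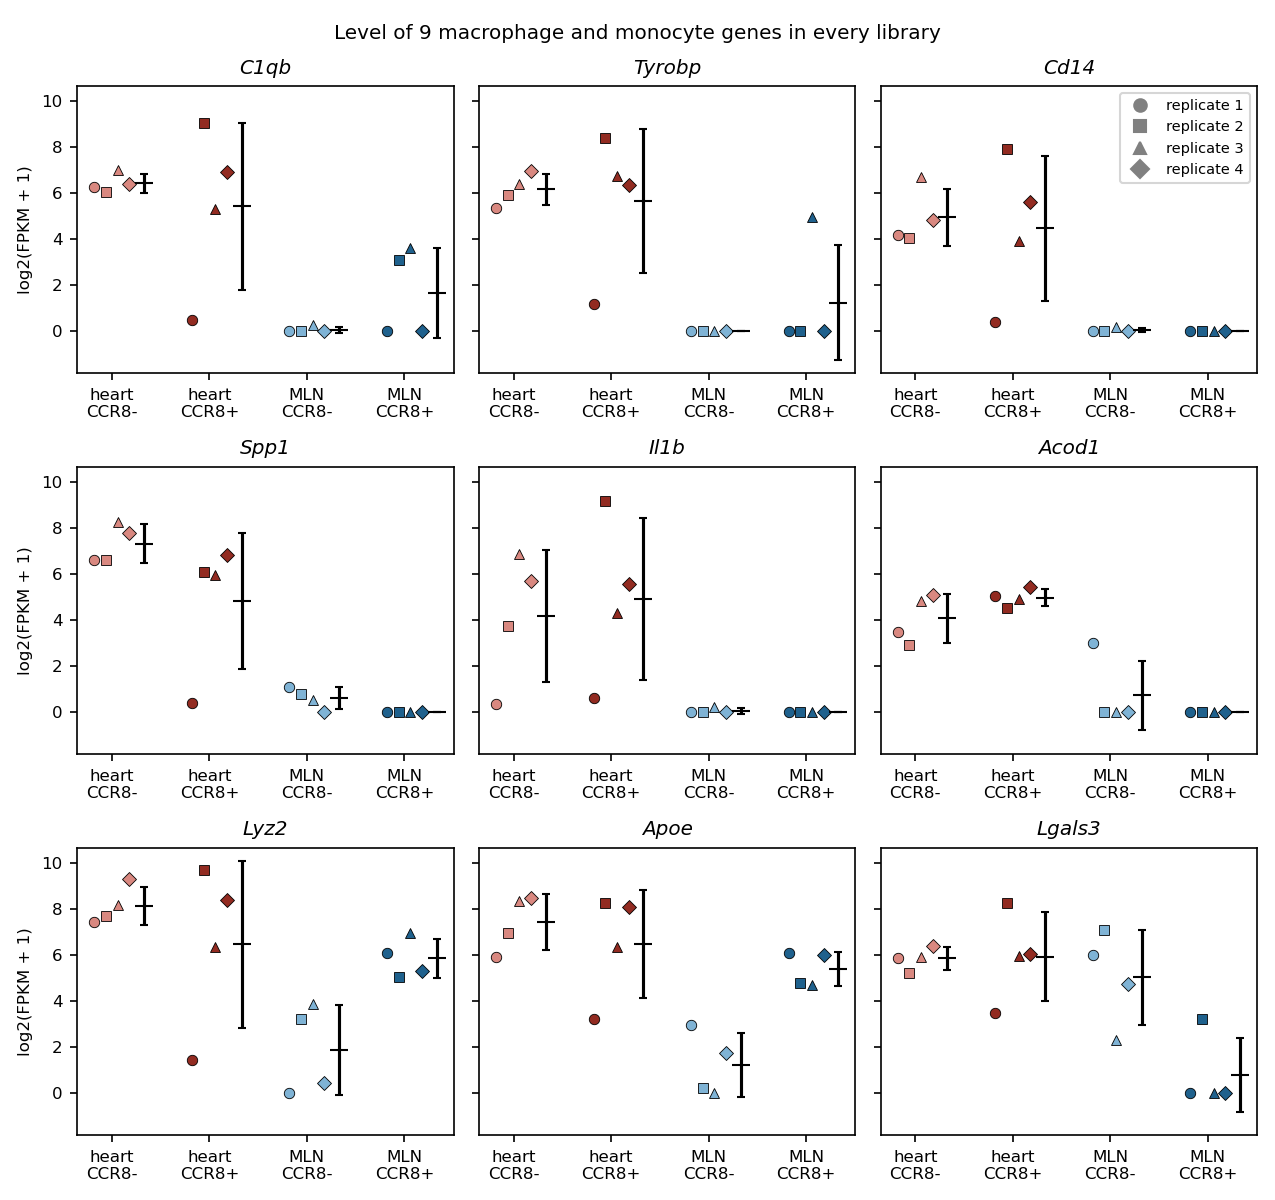
Level of 9 macrophage and monocyte genes as log2(FPKM + 1) in every library, by group; symbols mark replicate numbers, the horizontal line is the mean of 4 libraries and the bar is 1 SD. Heart CCR8+ replicate 1 (circle) lies near the MLN libraries for C1qb, Tyrobp, Cd14, Spp1 and Il1b and among the other heart libraries for Acod1.

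Spp1 encodes osteopontin, a secreted matrix protein made by macrophages of injured heart and by some other cells. It had the largest tissue difference among the 24 genes tested in CCR8- Tregs. Levels were 6.64, 6.63, 8.26 and 7.81 in heart CCR8- and 0.42, 6.12, 5.99 and 6.82 in heart CCR8+ replicates 1 to 4. MLN CCR8- replicates 1 to 4 had 1.11, 0.79, 0.55 and 0, and Spp1 was listed at 0 in all MLN CCR8+ libraries. Neither tissue pair overlapped within its sort, with differences of 6.72 ± 0.96 in CCR8- (SE, limma, adjusted p = 4.18e-04) and 4.84 ± 0.96 in CCR8+ Tregs (adjusted p = 0.00275). Some exon bases of Spp1 are shared with the same-strand transcript Gm42793.

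Cd63, a tetraspanin of late endosomes found in many cell types, was at 6.26, 4.97, 8.20 and 6.28 in heart CCR8- and at 0.46, 7.43, 5.57 and 5.88 in heart CCR8+ replicates 1 to 4. All MLN libraries were between 0 and 1.22. Heart exceeded MLN by 5.74 ± 1.02 in CCR8- (SE, limma, adjusted p = 0.00249) and by 4.56 ± 1.02 in CCR8+ Tregs (adjusted p = 0.00705). Only heart CCR8+ replicate 1 lay within the MLN range. Gpnmb, a glycoprotein of lipid-laden macrophages, stood much lower. It was at 1.33, 0.24, 2.47 and 3.57 in heart CCR8- and at 0.28, 1.59, 0.28 and 3.39 in heart CCR8+ replicates 1 to 4, and no MLN library exceeded 0.23. It was called only in the mean over both sorts, at 1.57 ± 0.49 (SE, limma, adjusted p = 0.0373), and lost the call in 12 of 16 fits without 1 library (differences 1.23 to 1.60, adjusted p 0.0545 to 0.0734).

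Il1b, the cytokine interleukin 1 beta, was at 0.35, 3.76, 6.89 and 5.71 in heart CCR8- and at 0.63, 9.20, 4.31 and 5.56 in heart CCR8+ replicates 1 to 4. It was listed at 0 in 7 MLN libraries and at 0.23 in MLN CCR8- replicate 3. The tissues did not overlap, although 2 heart libraries were under an FPKM of 1. The CCR8+ difference was 4.93 ± 1.35 (SE, limma, adjusted p = 0.0241), lost without heart CCR8+ replicate 2 or 4 or MLN CCR8+ replicate 1 or 4 (adjusted p 0.0541 to 0.09). In CCR8- Tregs it was 4.12 ± 1.35 and not called (adjusted p = 0.0895), and it was called without heart CCR8- replicate 1 (5.40, adjusted p = 0.0203), heart CCR8+ replicate 1 (adjusted p = 0.0426) or heart CCR8+ replicate 2 (adjusted p = 0.0435). An antisense transcript, Il1bos, shares exon bases with Il1b, and no source used here gives the strand used in counting.

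Acod1 was 1 of 6 macrophage and monocyte genes at an FPKM of 1 or more in all 8 heart libraries, with Lyz2, Apoe, Tyrobp, Lgals3 and Plac8. It encodes the enzyme that makes itaconate in activated macrophages and lies on chromosome 14 (GRCm38 103046977-103056573). Its levels were 3.50, 2.91, 4.85 and 5.10 in heart CCR8- and 5.05, 4.52, 4.91 and 5.44 in heart CCR8+ replicates 1 to 4. It was listed at 0 in 7 of 8 MLN libraries, with 2.999 in MLN CCR8- replicate 1. The CCR8+ groups did not overlap and differed by 4.98 ± 0.68 (SE, limma, adjusted p = 8.64e-05). The CCR8- groups overlapped through that MLN library and differed by 3.34 ± 0.68 (adjusted p = 0.00636), with adjusted p = 0.0739 when only those 2 groups entered the fit.

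Lysozyme 2 and ApoE were the only genes of the 28 that reached an FPKM of 1 in all MLN CCR8+ libraries besides Plac8. Lyz2, the bactericidal lysozyme of macrophages and neutrophils (chromosome 10, 117277331-117282321), was at 6.08, 5.08, 6.98 and 5.32 in MLN CCR8+ and at 0, 3.23, 3.86 and 0.45 in MLN CCR8- replicates 1 to 4. Heart CCR8- replicates 1 to 4 had 7.46, 7.69, 8.17 and 9.31, and heart CCR8+ replicates 1 to 4 had 1.44, 9.69, 6.38 and 8.38. The 4 MLN CCR8+ libraries all lay above the 4 MLN CCR8- libraries, yet the difference of 3.98 ± 1.22 was not called (SE, limma, adjusted p = 0.0759). It was called in the fits without heart CCR8+ replicate 1 (adjusted p = 0.0092), heart CCR8+ replicate 2 (adjusted p = 0.0494) or MLN CCR8- replicate 3 (adjusted p = 0.0499). Heart CCR8- exceeded MLN CCR8- by 6.27 ± 1.22 (adjusted p = 0.00468), while heart CCR8+ and MLN CCR8+ overlapped and differed by 0.61 ± 1.22. The paralog Lyz1, nearly identical in sequence, was high in the same libraries, between 3.93 and 6.44 in the 7 heart libraries other than CCR8+ replicate 1 and between 1.27 and 4.88 in MLN CCR8+ Tregs, so the split of reads between the pair is uncertain.

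Apoe, a lipid carrier protein made by macrophages among other cells (chromosome 7, 19696109-19699188), showed the same order with a call. It was at 6.08, 4.78, 4.73 and 5.99 in MLN CCR8+ and at 2.96, 0.25, 0 and 1.77 in MLN CCR8- replicates 1 to 4, with no overlap. In the MLN, Apoe was higher in CCR8+ than CCR8- Tregs by 4.15 ± 0.90 (SE, limma, adjusted p = 0.011), and the adjusted p was at most 0.04 when any 1 library was left out. Without a filter on low values it was 0.0593. In the heart it was at 5.94, 6.96, 8.35 and 8.49 in CCR8- and at 3.23, 8.26, 6.37 and 8.10 in CCR8+ replicates 1 to 4. Heart CCR8- exceeded MLN CCR8- by 6.19 ± 0.90 (adjusted p = 4.67e-04), and heart CCR8+ exceeded MLN CCR8+ by 1.09 ± 0.90 with no call. Lyz2 and Apoe together made up 72.1, 29.7, 40.3 and 69.6% of the summed FPKM of the 28 genes in MLN CCR8+ replicates 1 to 4, against 3.89, 2.66, 20.9 and 4.04% in MLN CCR8- replicates 1 to 4.

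Lgals3 went the other way in the MLN. It encodes galectin 3, a carbohydrate-binding protein that activated T cells can also make (chromosome 14, 47367751-47386160). MLN CCR8- replicates 1 to 4 had 6.001, 7.12, 2.30 and 4.73, and MLN CCR8+ replicates 1 to 4 had 0, 3.22, 0 and 0. The groups overlapped through CCR8- replicate 3 and CCR8+ replicate 2. Lgals3 was lower in MLN CCR8+ Tregs, with a difference of -4.23 ± 0.97 (SE, limma, adjusted p = 0.0163). The call was lost without MLN CCR8- replicate 1 (adjusted p = 0.053) or 2 (0.0608) or MLN CCR8+ replicate 1 (0.0532) or 4 (0.0546), at differences of -3.54 to -3.96. In the heart it was at 5.90, 5.22, 5.93 and 6.41 in CCR8- and at 3.49, 8.25, 5.96 and 6.05 in CCR8+ replicates 1 to 4. Heart CCR8+ exceeded MLN CCR8+ without overlap, by 5.13 ± 0.97 (adjusted p = 0.00201), and the CCR8- tissues differed by 0.83 ± 0.97, which was not called.

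Apoe and Lgals3 were the 2 of 24 tested macrophage and monocyte genes called between MLN CCR8+ and MLN CCR8- Tregs. Among all tested genes 4.14% were called in that comparison, 2.04% higher and 2.09% lower, and median-of-ratios scaling turned the split of all calls from 212 higher and 217 lower into 273 higher and 174 lower without moving these 2 calls. The share of all genes whose 4 MLN CCR8+ libraries lay above the 4 CCR8- libraries was 4.62%. The median difference of the 24 genes was -0.02, beside -0.04 over all genes. Mean levels of markers of other antigen-presenting cells overlapped between the MLN sorts. All 3 tested B cell genes and 2 of 4 tested dendritic cell genes were higher in MLN CCR8+ Tregs, with median differences of 3.10 and 2.25. At an unadjusted p under 0.05 in limma there were 2 B cell genes and 2 dendritic cell genes. B cell markers had a mean level of 1.86 to 3.92 in the CCR8+ and 0.39 to 2.79 in the CCR8- libraries of the MLN, with 6 of 7 in the table, 0 of 3 tested genes called and Pax5 at 0 in 4 of the 8 MLN libraries. Dendritic cell markers had a mean level of 1.27 to 2.10 in the CCR8+ and 0.21 to 1.87 in the CCR8- libraries of the MLN, with H2-Ab1 called higher among 4 tested genes (4.67, limma, adjusted p = 0.0498) and Clec9a at 0 in all libraries. Their part in the result was not tested.

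Plac8, a small cysteine-rich protein of monocytes and of several lymphocyte states, was the gene with the highest mean level of the 28, and its tissue groups overlapped. It was at 1.65, 6.92, 4.96 and 4.34 in heart CCR8- and at 8.51, 8.22, 5.77 and 3.61 in heart CCR8+ replicates 1 to 4. MLN libraries were at 6.20, 5.13, 5.38 and 5.16 in CCR8- and at 5.13, 6.81, 6.82 and 5.29 in CCR8+ replicates 1 to 4. Both heart groups spanned the MLN values. The heart CCR8+ minus CCR8- difference of 2.06 ± 0.97 was not called (limma, adjusted p = 0.441).

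The remaining macrophage and monocyte genes were low or irregular. Pf4, platelet factor 4, which heart-resident macrophages also transcribe in mice, was at 2.85 to 7.22 in the 7 heart libraries other than CCR8+ replicate 1, and at 0 in that library. MLN libraries had Pf4 between 0 and 1.07 except for 6.93 in MLN CCR8- replicate 2. That library also had the platelet genes Ppbp at 5.02, Gp9 at 4.24, Itga2b at 1.81 and Gp1bb at 0.40, while Ppbp and Gp9 were at 0 in all heart libraries. MLN CCR8- replicate 1 had Ppbp at 3.80 with Pf4 at 0.55. The source of the Pf4 transcript was not tested. The Pf4 tissue difference was not called (2.48 ± 0.96, limma, adjusted p = 0.0959), and without MLN CCR8- replicate 2 it was called at 3.32 (adjusted p = 0.00555), as it was without heart CCR8+ replicate 1 at 3.09 (adjusted p = 0.0269). Trem2, a lipid receptor of macrophages, was at an FPKM of 1 or more in 4 heart libraries, up to 4.39 in heart CCR8- replicate 4, and no MLN library exceeded 0.10. Chil3, a chitinase-like protein, and Ccl9, a chemokine, peaked in heart CCR8+ replicate 2 at 5.03 and 4.18. Arg1, the arginase of repair-type macrophages, was at most 2.89 in heart and reached 1.74 and 1.76 in MLN CCR8- replicates 1 and 2.

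Classical surface markers of macrophages were mostly low in the heart, apart from CCR8+ replicate 2, where the 5 described here all reached an FPKM of 1. Csf1r lay between 0.01 and 4.39 in the heart and at or below 0.08 in the MLN. Adgre1, which encodes F4/80, was above 0 in 5 heart libraries, up to 3.21, and was at 0 in all MLN libraries. Mrc1, the mannose receptor, reached an FPKM of 1 in 2 heart libraries, while Fcgr1, the high-affinity Fc receptor, and Cd163, the haemoglobin scavenger receptor, did so in 1. The highest value of all 5 was in heart CCR8+ replicate 2. Adgre1, Fcgr1, Mrc1 and Cd163 were not tested because fewer than 4 libraries reached an FPKM of 1.

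**Figure D3:**
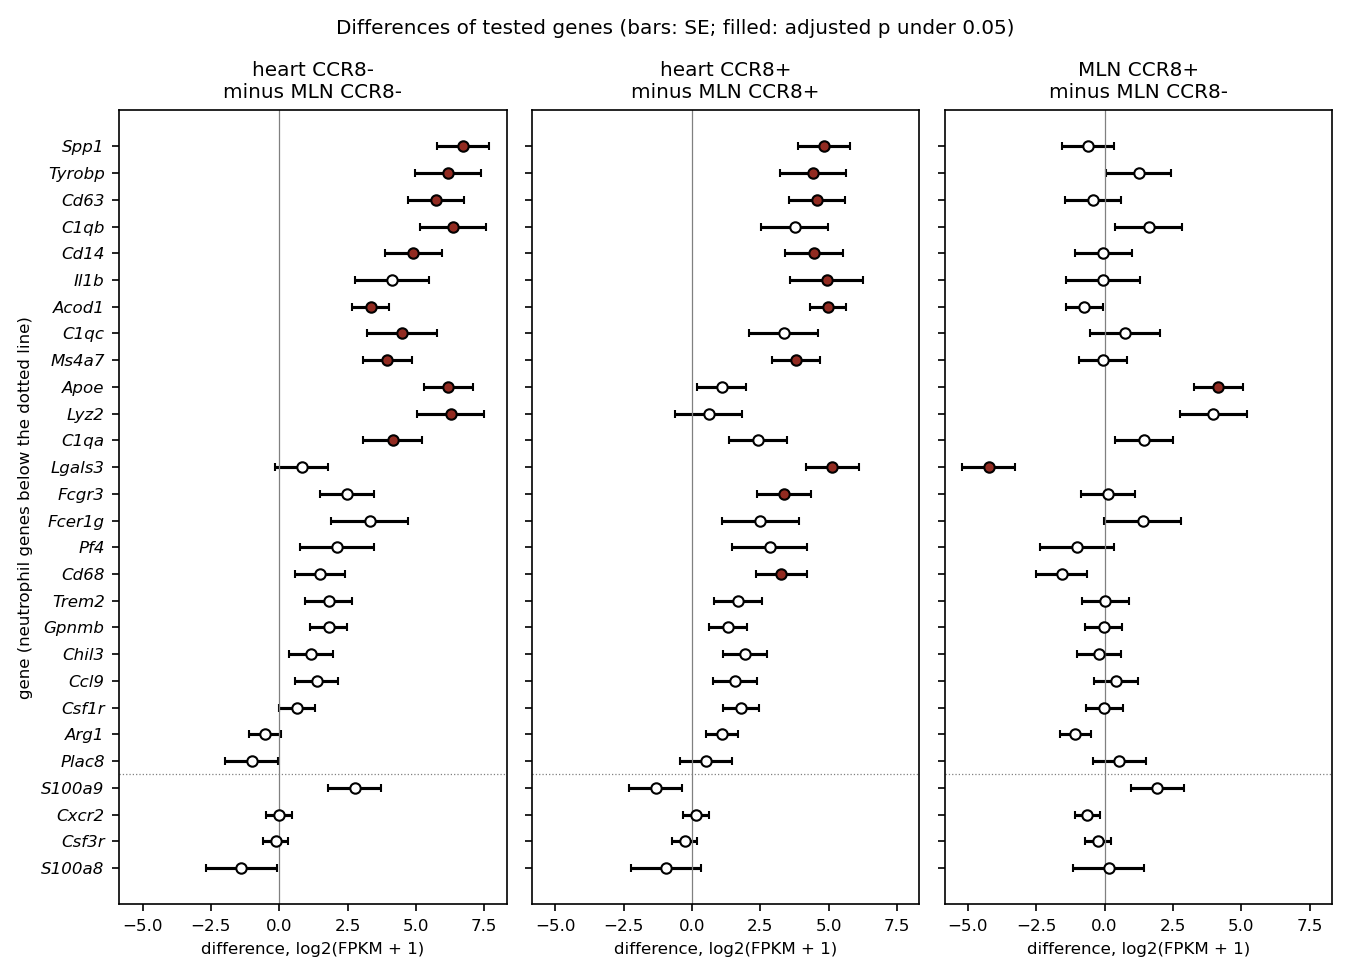
Difference in log2(FPKM + 1) for the 28 tested genes in 3 comparisons, with bars of 1 SE and filled points for an adjusted p under 0.05 in limma; neutrophil genes lie below the dotted line. In CCR8- Tregs 11 and in CCR8+ Tregs 10 macrophage and monocyte genes were called higher in heart, between MLN sorts 1 was called higher and 1 lower, and no neutrophil gene was called.

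Counted over the tested genes, 11 of 24 macrophage and monocyte genes were called higher in heart CCR8- than in MLN CCR8- Tregs and none lower, where 2.95% of all genes were called higher, 1.61% were called lower and 5.24% had all 4 heart libraries above the 4 of the MLN. Median-of-ratios scaling moved the split of all genes called in that comparison from 306 higher and 167 lower to 355 and 120. In CCR8+ Tregs 10 of 24 were called higher in heart and none lower, where 5.82% of all genes were called higher, 3.97% were called lower and 9.71% did not overlap in that direction. In the mean over both sorts 16 of 24 were called higher in heart and none lower, where 7.92% of all genes were called higher and 5.99% lower, and 4 (Cd14, Ms4a7, Il1b and Gpnmb) had all 8 heart libraries above all 8 MLN libraries, against 1.56% of all genes. The separations of Cd14, Ms4a7, Il1b and Gpnmb all lay between levels under an FPKM of 1. The lowest heart and highest MLN levels were 0.39 and 0.19 for Cd14, 0.34 and 0.23 for Ms4a7 and 0.35 and 0.23 for Il1b. For Gpnmb they were 0.236 and 0.2345. Cd14, Tyrobp, Ms4a7, Spp1, Acod1 and Cd63 were called in both sorts. The median difference of the 24 was 3.33 in CCR8- Tregs and 3.06 in CCR8+ Tregs, beside -0.10 and -0.08 over all genes. These counts and medians describe the genes tested and do not bear on the list as a whole, because 18 of the 24 passed the filter with fewer than 4 MLN libraries at an FPKM of 1. The CCR8+ count rested on single libraries: it was 6 without heart CCR8+ replicate 2, heart CCR8+ replicate 4 or MLN CCR8+ replicate 1, and 15 without heart CCR8+ replicate 1. Without heart CCR8+ replicates 1 and 2, a choice made after seeing the data, the counts were 11 in CCR8+ Tregs, 12 in CCR8- Tregs and 18 in the mean over both sorts.

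Markers of stromal cells were also higher in the heart. Of the fibroblast markers, 8 of 10 were tested and 7 called higher in the mean over both sorts, and of the endothelial markers 4 of 10 were tested and Emcn and Fabp4 (which macrophages also transcribe) called higher. In that comparison 7.92% of all tested genes were called higher. No fibroblast marker reached an FPKM of 1 in MLN CCR8- libraries, and at most 2 did in any MLN CCR8+ library. The tested fibroblast genes thus passed the filter only with heart libraries, and their count does not bear on the list as a whole. Summed FPKM of the fibroblast markers ranged from 68.7 to 329 in heart CCR8-, from 14.3 to 223 in heart CCR8+ and up to 6.35 in MLN libraries, with Pdgfra at 0 in all heart libraries. Heart CCR8+ replicate 1 was also the lowest heart library for the mean fibroblast level, at 0.58 against 2.35 to 4.13, and for the mean endothelial level, at 0.80 against 1.11 to 6.44. Heart CCR8+ replicate 2, the highest for macrophage genes, was at 2.35 and 1.27 for these. Its dendritic cell markers stood highest of the heart, with a summed FPKM of 1561 against 25.7 to 132 in the other 7 heart libraries, led by the MHC class II genes H2-Aa at 10.12 and H2-Ab1 at 8.81, which macrophages and B cells also transcribe. Clec9a was at 0 there. The endothelial maximum was in heart CCR8- replicate 3, where Cdh5, a junction protein of endothelium, was at 7.18. Cdh5 was at 0 in all MLN libraries. The part of these cell types in the tissue differences was not tested.

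**Figure D4:**
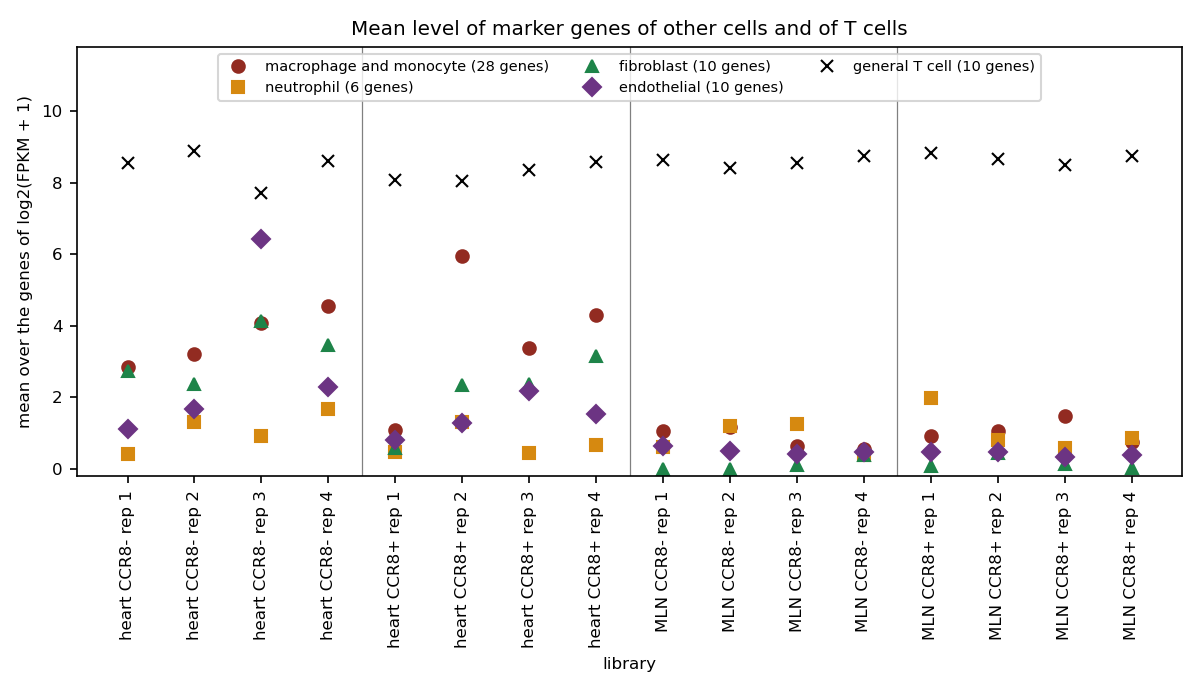
Mean log2(FPKM + 1) of the macrophage and monocyte (28), neutrophil (6), fibroblast (10), endothelial (10) and general T cell (10) genes in each library. T cell genes stay between 7.72 and 8.90, macrophage and monocyte genes range from 1.10 to 5.95 in heart libraries and from 0.55 to 1.47 in MLN libraries, and neutrophil genes stay below 2.

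Between the sorts of the heart no macrophage, monocyte or neutrophil gene was called. In that comparison 0.366% of all genes were called by limma, and at an unadjusted p under 0.05 there were 2 macrophage and monocyte genes (Spp1 and Plac8) and 1 neutrophil gene (S100a9). Spp1 differed by -2.50 ± 0.96 with heart CCR8+ replicate 1 at 0.42 and the other 7 heart libraries at 5.99 to 8.26 (adjusted p = 0.317). The median difference of the 24 genes was -0.15, beside 0.0001 over all genes. The mean level of the 28 genes spanned 1.10 to 5.95 within heart CCR8+ Tregs, and the absence of a call does not show that the sorts carry equal amounts.

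Whether the CCR8 difference depended on tissue was tested as an interaction, and no macrophage, monocyte or neutrophil gene was called by limma, where 0.405% of all genes were. At an unadjusted p under 0.05 there were 3 macrophage and monocyte genes and 1 neutrophil gene. Those 3 were Apoe (-5.09 ± 1.27, adjusted p = 0.099), Lyz2 (-5.66 ± 1.73, adjusted p = 0.177) and Lgals3 (4.31 ± 1.38, adjusted p = 0.199), each as heart CCR8+ minus CCR8- less the same in the MLN. Apoe and Lyz2 had lower means in CCR8+ than CCR8- Tregs of the heart and higher ones in CCR8+ Tregs of the MLN. The lower heart means rested on heart CCR8+ replicate 1, at 3.23 for Apoe and 1.44 for Lyz2. The remaining heart CCR8+ libraries had Apoe at 6.37 to 8.26 and Lyz2 at 6.38 to 9.69. Heart CCR8- libraries had Apoe at 5.94 to 8.49 and Lyz2 at 7.46 to 9.31.

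No neutrophil gene was called between tissues, with 4 tested. In the mean over both sorts 7.92% of all tested genes were called higher in heart and 5.99% lower. Over the 6 genes, heart CCR8- Tregs had a mean level of 1.08 ± 0.55 and heart CCR8+ Tregs of 0.72 ± 0.40 (SD, n = 4 each). MLN CCR8- Tregs had 0.86 ± 0.43 and those that were CCR8+ had 1.06 ± 0.62 (n = 4 each). S100a8, a subunit of calprotectin (chromosome 3, 90668978-90670035), was at 0, 0, 0 and 3.36 in heart CCR8- and at 0, 2.30, 0.62 and 2.80 in heart CCR8+ replicates 1 to 4. The MLN had S100a8 at 0, 4.06, 4.84 and 0 in CCR8- and at 5.91, 0, 0.39 and 3.22 in CCR8+ replicates 1 to 4. Its partner S100a9 (chromosome 3, 90692632-90695721) was at 0, 3.46, 3.83 and 3.73 in heart CCR8- and at 0, 2.41, 0 and 0 in heart CCR8+ replicates 1 to 4. S100a9 was listed at 0 in all MLN CCR8- libraries and stood at 4.33, 3.29, 0 and 0.11 in MLN CCR8+ replicates 1 to 4. The subunits were rarely in the same library: at least 1 of them reached an FPKM of 1 in 10 of 16 libraries and both in 3.

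Cxcr2 and Csf3r, receptors of neutrophils for chemokines and for the growth factor G-CSF, stood at or below 2.24 in all libraries. Cxcr2 was at 1.68, 2.24, 1.14 and 1.93 in heart CCR8- and at 1.78, 1.34, 1.02 and 1.01 in heart CCR8+ replicates 1 to 4. In the MLN it was at 2.12, 2.01, 1.51 and 1.39 in CCR8- and at 0.77, 1.13, 1.76 and 0.87 in CCR8+ replicates 1 to 4. Csf3r was above 0 in all 16 libraries, from 0.22 to 2.13. All groups overlapped for both receptors. Retnlg, a resistin-like protein of neutrophils, was above 0 in 3 heart libraries and at most 0.95, and Mmp8, neutrophil collagenase, was above 0 in 2 libraries and at most 0.13.

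Of the 6 neutrophil genes 4 were tested, and limma called 0 of 4 in each of the 6 comparisons. The shares of all tested genes called ran from 0.366% between heart sorts to 7.92% higher and 5.99% lower for tissues in the mean over both sorts. With 4 genes, 0 calls is near such shares and does not set neutrophil genes apart. At an unadjusted p under 0.05 S100a9 was the 1 gene in heart CCR8- against MLN CCR8- (2.76 ± 0.96, adjusted p = 0.118), in heart CCR8+ against CCR8- and in the interaction. Without heart CCR8- replicate 1 the tissue difference of S100a9 in CCR8- Tregs was called at 3.68 (adjusted p = 0.0268). The median tissue difference of the 4 genes was -0.07 in CCR8- and -0.61 in CCR8+ Tregs, beside -0.10 and -0.08 over all genes.

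In the mean over both sorts 7.92% of all tested genes were called higher in heart and 5.99% lower. Of 24 other macrophage and monocyte genes 12 passed the filter, and in that comparison 2 were called higher in heart and 1 lower. These counts are too small to set the list apart from all genes. Of the 12, 8 passed the filter with fewer than 4 MLN libraries at an FPKM of 1, Mpeg1 and Fcgr4 among them. The genes called higher were Mpeg1, a pore-forming protein (1.44, limma, adjusted p = 0.0139), and Fcgr4, an Fc receptor (2.22, adjusted p = 0.0164). Fcgr4 was listed at 0 in all MLN libraries and in heart CCR8- replicate 1 and was at most 3.89 in heart. Ctss, the protease cathepsin S, which the T cell libraries carried at 8.75 to 10.09 throughout, was the lower gene (-0.39, adjusted p = 0.0232), and within the MLN it was higher in CCR8+ Tregs by 0.71 (adjusted p = 0.0115).

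Of 18 other neutrophil genes 17 were in the table, 3 were tested and 2 called higher in heart in the mean over both sorts, Cxcl2 and Mmp9. Over all tested genes 7.92% were called higher in that comparison. Of the 3 tested, 2 passed the filter with fewer than 4 MLN libraries at an FPKM of 1. The chemokine Cxcl2, which attracts neutrophils and is made by macrophages and other activated cells, was at 7.57, 6.57, 8.57 and 7.14 in heart CCR8- and at 7.37, 9.97, 7.43 and 8.04 in heart CCR8+ replicates 1 to 4. MLN CCR8- libraries were at or below 0.28, and MLN CCR8+ replicates 1 to 4 had 3.55, 0, 2.87 and 0.06. Heart exceeded MLN without overlap, by 7.39 in CCR8- (limma, adjusted p = 1.06e-05) and 6.59 in CCR8+ Tregs (adjusted p = 1.09e-05). Like Acod1, Cxcl2 was high in heart CCR8+ replicate 1. The gelatinase gene Mmp9 was called at 1.63 (adjusted p = 0.0448). The neutrophil surface marker Ly6g and the granule genes Mpo, Elane and Ltf were at or below 0.34 in every library. Another granule gene, Camp, reached 3.91 in heart CCR8- replicate 4 and an FPKM of 1 in no other library.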

How the data were processed

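The 16 libraries were grouped by their labels into 4 groups of 4. Per the submitters' processing notes, reads were handled with HISAT2 2.0.5 and featureCounts 1.5.0-p3 on mm10/GRCm38, and the FPKM values were made by the authors. The deposited table carries these on a log2 scale, judged from its values. Without the log, each library summed to 1007908 to 1007934, which TPM would also give, and all shared the highest value, as after quantile scaling. No step of that kind is given in the sources used here. Read totals are unknown, so no counting interval is given. The planned design assumed values without a log, so no second log was taken.

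Of 19219 rows, 24 date-like entries were left out. The 10369 genes that reached an FPKM of 1 in 4 libraries or more were fitted with limma 3.58.1 (R 4.3.3), as a mean per group with trended variance, 12 residual and 7.01 prior degrees of freedom. The 6 comparisons were adjusted by Benjamini-Hochberg over all genes tested, and the fit was tested on simulated data. Gene positions are from GENCODE vM21 and promoters from RefSeq GRCm38.p6. Full values are given for called genes, the highest-mean genes of the macrophage list and 3 neutrophil genes. Alternatives were a pseudocount of 0.1, other filters, median-of-ratios factors, array weights, a replicate block, only the groups compared and leaving out each library. The genes and lists were chosen with earlier results of these data known.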

Additional observations from a re-analysis of the deposited data

Results flagged for a closer look

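Within each group of 4 libraries, the gap between the most extreme library and its neighbour was compared with the group's range (Dixon's test at its 95% critical value). Of 120 groups examined, 18 exceeded it, where chance flags about 1 in 20 for normally distributed values. Groups at 0 in all 4 libraries are among the 120 and cannot be flagged. A group at 0 apart from 1 library always exceeds it, and many of the 18 are of this kind. The 18 therefore cannot be set against that rate.

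In MLN CCR8- Tregs, replicate 3 stood alone for C1qb (0.28), C1qc (0.53), Fcgr3 (0.23), Cd14 (0.19), Ms4a7 (0.23) and Il1b (0.23), with the other 3 libraries at 0, all under an FPKM of 1. Acod1 was at 2.999 in replicate 1 and at 0 in the others. In MLN CCR8+ Tregs, replicate 3 alone had C1qc (3.48) and Tyrobp (4.98), replicate 2 stood apart for Fcgr3 (0.62) and Lgals3 (3.22), and replicate 1 for Gpnmb (0.23).

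In the heart, Spp1 was at 0.42 in CCR8+ replicate 1, with the next library at 5.99. S100a8 was at 3.36 in CCR8- replicate 4 and at 0 in the other 3. S100a9 was at 0 in CCR8- replicate 1, with the next library at 3.46, and at 2.41 in CCR8+ replicate 2 alone. The mean level of the platelet genes stood apart in CCR8- replicate 3 (0.0034) and CCR8+ replicate 3 (0.14), both near 0.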

How the results depend on the processing

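The directions of the 39 called differences between groups held in all alternatives, while their calls did not. Of the single-gene results under alternatives, 842 kept the call, 77 lost it and 0 turned. Without a filter on low values, the macrophage and monocyte genes called fell to 0 between MLN sorts, 6 between tissues in CCR8+ Tregs and 7 in CCR8- Tregs, and with only the groups compared 1 was called between MLN sorts. Leaving out 1 library gave 1 to 3 calls between MLN sorts, 6 to 15 between tissues in CCR8+ Tregs, 9 to 12 in CCR8- Tregs, 15 to 21 in the mean over both sorts, and 0 to 1 neutrophil gene between tissues in CCR8- Tregs. No call appeared between heart sorts or in the interaction. The mean macrophage and monocyte level was 2.73 higher in heart (2.40 to 3.09 without 1 library, 2.94 on the summed FPKM scale). The neutrophil mean differed by -0.07 (-0.18 to 0.08), was -0.52 on the summed scale, and reversed to 0.0036 without heart CCR8- replicate 1 and 0.0785 without MLN CCR8+ replicate 1. The cause was not tested. Deviations from group means correlated at -0.0933 to 0.0589 between libraries of the same number and at -0.0961 to 0.1166 between those of different numbers. These correlations cannot show whether same-numbered libraries shared a mouse or a day. With a replicate block 0 genes were called between heart sorts and 2 between MLN sorts. Between tissues the block gave 11 in CCR8+ Tregs, 10 in CCR8- Tregs and 17 in the mean, with 0 in the interaction. Unknown read depth and 4 libraries of about 100 cells per group limit all low values: a gene listed at 0 is not shown to be absent.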

Other observations

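Mast cell and basophil markers, 6 of 7 of which were in the table, had a mean level of 0.32 to 1.08 in heart CCR8- and 0.37 to 0.94 in heart CCR8+ libraries and at most 0.19 in the MLN. Kit, the 1 gene of these tested, was higher in heart in the mean over both sorts (1.47 ± 0.38, limma, adjusted p = 0.0146). Ms4a2 had a mean of 0.05 in the heart and 0.45 in the MLN, and Mcpt4 was at 0 in all libraries. NK cell markers had a mean level of at most 0.88, in an MLN CCR8- library. The mean level of erythroid markers ranged from 0.46 to 2.10 in heart CCR8-, from 0.16 to 3.003 in heart CCR8+, from 0.22 to 4.40 in MLN CCR8- and from 0.58 to 4.40 in MLN CCR8+ libraries. Cardiomyocyte markers had a mean level of 0.43 to 1.87 in heart CCR8- and 0.16 to 2.56 in heart CCR8+ libraries, and at most 0.44 in the MLN.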
